A study of Homo sapiens with 3 samples.

Results

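The genes of the translation initiation factors, the proteins that bring the ribosome to the start codon of a messenger RNA, were examined together with the kinases that phosphorylate the alpha subunit of eIF2. Members were the genes with a symbol starting with EIF and a digit that had at least 1 probe set annotated to that gene alone. Pseudogenes and EIF1AY were left out. The rule gave 50 genes with 166 probe sets, of 18239 genes with 45259 such probe sets in all. The highest value over the arrays reached the median of all values (4.88 on the log2 scale) for 48 of the 50 genes, and these are called kept genes below. EIF4E1B and EIF5AL1 stayed under that level on all 3 arrays.

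The cells were A498, an established epithelial line from a human kidney carcinoma, and the assay was an Affymetrix 3' expression array. One culture was exposed to E. coli 83972, a strain that colonises the human bladder without symptoms. A culture with DRB at 60 µM received an inhibitor of CDK9, the P-TEFb kinase, a nucleoside analogue that blocks elongation by RNA polymerase II. The control culture had 0.08% DMSO. All 3 cultures were in serum-free medium with gentamicin, and RNA was taken at 4 h. The labels state no DMSO for the E. coli 83972 and DRB cultures, and they differ on the bacterial concentration, so none is given. There was 1 array per group, each from the experiment numbered 2, so no difference has a replicate check and no test between groups was possible. Each difference below compares single arrays.

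As background, initiation starts when eIF2, a carrier of the initiator tRNA bound to GTP, joins the small ribosomal subunit with eIF1, eIF1A, eIF3 and eIF5. The eIF4F complex, made of the cap-binding protein eIF4E, the scaffold eIF4G and the RNA helicase eIF4A, recruits that subunit to the capped messenger RNA. Phosphorylation of eIF2 alpha by one of the kinases HRI, PKR, PERK and GCN2 blocks the exchange factor eIF2B. Most translation then declines, while a few messages with upstream open reading frames, such as that of ATF4, are translated more.

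A level is the deposited log2 value of the gene's brightest probe set, and levels of different genes are not compared. Differences between arrays are differences of log2 values, and those of at least 2-fold, or 1 on the log2 scale, were counted. Array medians lay between 4.87 and 4.90. The gap between the differences of a gene's 2 brightest probe sets was divided by the square root of 2, to describe 1 probe set. Over 6317 genes its robust standard deviation was 0.12 (E. coli 83972 and control), 0.15 (DRB and control) and 0.17 (E. coli 83972 and DRB). This measures the probe sets only. Of 12 markers of renal and carcinoma epithelium, 11 were measured, and 8, 9 and 8 of them reached the level of 4.88 on the E. coli 83972, DRB and control arrays. The keratin KRT18 stood at 11.55, 11.67 and 11.63 on those arrays, and the kidney factor PAX8 at 7.23, 6.10 and 7.07. The epithelial markers EPCAM and CDH1, and PTPRC, which marks leukocytes, stayed under that level on all 3 arrays. Kept genes numbered 2 of 5 measured leukocyte markers, 2 of 5 endothelial markers and 1 of 5 fibroblast markers.

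Promoter windows are shown for EIF1B, EIF2AK3 and EIF4A2, the members more than 2-fold lower with DRB whose kept probe sets agreed, and for the close paralogs EIF1 and EIF4A1, whose brightest probe sets were near the control level. Each is the 250 bases before a RefSeq start on GRCh38.p14, printed 5′ to 3′ on the strand of the gene. Capitals mark every match, on either strand, to the GC box GGGCGG, the CCAAT box CCAAT, the TATA box TATAAA, the E-box CACGTG or the ETS motif CCGGAAG. The windows are EIF1B at chr3:40309457-40309706 (plus strand), EIF1 at chr17:41688635-41688884 (plus strand), EIF4A2 at chr3:186783327-186783576 (plus strand), EIF4A1 at chr17:7572575-7572824 (plus strand) and EIF2AK3 at chr2:88627465-88627714 (minus strand).
EIF1B: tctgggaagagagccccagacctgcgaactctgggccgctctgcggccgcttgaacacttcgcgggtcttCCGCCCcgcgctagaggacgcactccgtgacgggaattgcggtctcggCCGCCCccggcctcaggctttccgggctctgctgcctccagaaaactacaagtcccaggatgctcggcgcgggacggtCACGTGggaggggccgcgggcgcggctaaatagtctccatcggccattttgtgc
EIF1: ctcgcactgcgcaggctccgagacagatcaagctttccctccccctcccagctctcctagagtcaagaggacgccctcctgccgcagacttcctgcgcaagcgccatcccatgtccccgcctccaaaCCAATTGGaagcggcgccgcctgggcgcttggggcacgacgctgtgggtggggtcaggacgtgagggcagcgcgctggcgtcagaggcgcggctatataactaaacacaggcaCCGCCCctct
EIF4A2: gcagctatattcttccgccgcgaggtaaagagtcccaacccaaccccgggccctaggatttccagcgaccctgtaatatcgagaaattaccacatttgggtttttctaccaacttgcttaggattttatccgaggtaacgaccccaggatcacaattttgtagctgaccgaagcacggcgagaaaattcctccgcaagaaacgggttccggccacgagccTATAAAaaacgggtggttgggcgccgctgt
EIF4A1: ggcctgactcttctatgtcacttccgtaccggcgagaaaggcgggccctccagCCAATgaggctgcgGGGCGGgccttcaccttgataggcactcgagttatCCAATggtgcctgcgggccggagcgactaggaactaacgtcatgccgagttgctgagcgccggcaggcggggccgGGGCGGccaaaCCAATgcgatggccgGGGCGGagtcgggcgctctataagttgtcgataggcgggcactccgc
EIF2AK3: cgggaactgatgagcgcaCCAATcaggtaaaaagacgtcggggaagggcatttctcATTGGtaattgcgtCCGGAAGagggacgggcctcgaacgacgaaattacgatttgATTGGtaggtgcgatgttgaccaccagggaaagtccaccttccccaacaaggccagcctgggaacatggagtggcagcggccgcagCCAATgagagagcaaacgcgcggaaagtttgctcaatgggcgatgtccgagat

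The EIF1B window held 2 GC boxes and an E-box that lay 49 to 54 bases before the start, and its G and C content was 66.8%. The EIF1 window, at 65.6%, held 1 GC box and 2 overlapping CCAAT boxes, one on each strand. The helicase paralogs differed more. The EIF4A1 window held 3 GC boxes and 3 CCAAT boxes at 65.2% G and C, and the EIF4A2 window held none of either, a TATA box 25 to 30 bases before the start, and 51.6% G and C. The EIF2AK3 window held 4 CCAAT boxes and 1 ETS motif at 55.2%. RefSeq windows were found for 42 of the 50 members, 56 windows in all. Among the 35116 windows of all genes the median G and C content was 58.0%, and a GC box was in 42.6%, a CCAAT box in 32%, a TATA box in 10.7%, an E-box in 6.34% and an ETS motif in 8.52%. Among the 56 member windows the shares were 64.3%, 39.3%, 1.79%, 19.6% and 17.9% in the same order. The TATAAA of EIF4A2 was thus the single exact match to that string in a member window, and variants of it were not searched. The EIF1 and EIF4A1 windows read tatataa and tataag close to the start, which the string does not match. A match of letters describes the window and is not a binding site. EIF1B starts 9 bases from EIF1B-AS1 on the opposite strand. Of the 42 members with a window, 9 have such an opposite start within 300 bases. The share over all genes was not counted, so whether 9 is many is not known.

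Exposure to E. coli 83972 was accompanied by small differences in the initiation factor genes. Of the 48 kept members, none differed by 2-fold or more from the control array, where 1.91% of all 11653 kept genes were higher and 0.652% lower. By brightest probe sets, none was 1.5-fold higher or lower either, against 5.19% and 3.06% of all kept genes. Dimmer kept probe sets of EIF4A1 (-0.85 and -0.73) and EIF2B1 (-0.59) were past 1.5-fold lower. The 48 gene differences ran from -0.39 (EIF1AD) to 0.41 (EIF2S2). Of them 17 were above 0 (35.4%, beside 45.2% of all kept genes) and 31 below. Their median of -0.03 was also the median of all kept genes. The middle of the distribution was narrower in the members, with 10th and 90th percentiles at -0.21 and 0.20, against -0.35 and 0.36 over all kept genes.

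With DRB, 5 members were at least 2-fold lower than on the control array: EIF1B, EIF1AD, EIF2AK3, EIF4ENIF1 and EIF4A2. That is 10.4% of the 48 kept members, beside 10.2% of all kept genes, so the share is near the background. No member was 2-fold higher, where 0.129% of all kept genes were. At the 1.5-fold level EIF5 and EIF5A2 joined the lower members, 7 in all (18.1% of all kept genes), and none was higher (2.03%). By their brightest probe sets, the other 41 members lay between -0.31 (EIF3M) and 0.58 (EIF4E3). Other kept probe sets of EIF1AD, EIF4ENIF1 and EIF5A2 lay within that range, and the mean over probe sets of EIF4A1, one of the 41, was -0.58. The members' median was 0.01, against 0.05 over all kept genes.

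The scale of the DRB comparison depends on how the arrays are centred. The 24 probe sets of the poly-A spike-in controls read bacterial RNAs usually added to a sample before labelling. They were higher by a median of 0.65 with DRB (0.49 to 0.96). With E. coli 83972 their median was 0.14, but they ran from -0.31 to 0.29, on both sides of 0. Centring on them lowers every DRB difference by 0.65 and the median of all kept genes to -0.60. All 48 members are then below 0, as are 11504 of the 11653 kept genes. The members' median is -0.64, and 7 are at least 2-fold lower, against 24.7% of all kept genes. Signs of small DRB differences given below therefore hold relative to the bulk of genes on the array as normalised by the authors. The signs of the E. coli 83972 differences of EIF2S2, EIF2B1 and EIF4EBP1 are the same with that centring, at 0.28, -0.52 and 0.21. The E. coli 83972 medians given below for the start codon, eIF2 and elongation lists, 0.01, 0.06 and 0.02, become -0.13, -0.08 and -0.11.

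**Figure D1:**
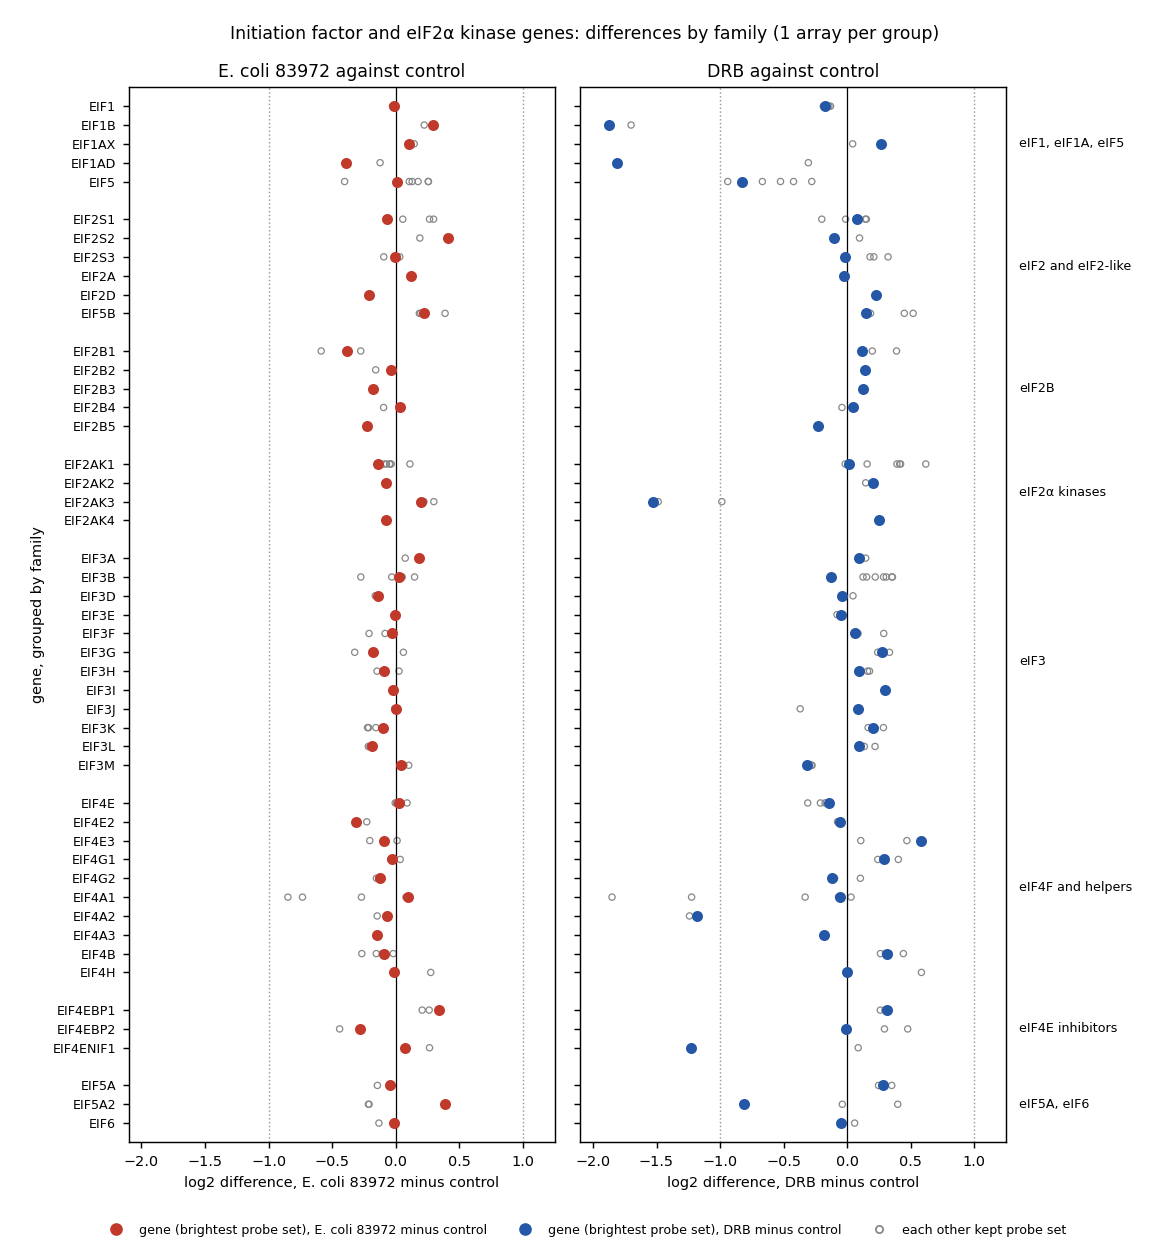
Differences of the 48 kept member genes by family, E. coli 83972 minus control on the left and DRB minus control on the right (log2 scale, 1 array per group). Filled points are the brightest probe set of a gene, open points its other kept probe sets, and dotted lines mark 2-fold. On the left all filled points lie between -0.39 and 0.41, and on the right 5 lie beyond the 2-fold line on the lower side.

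**Figure D2:**
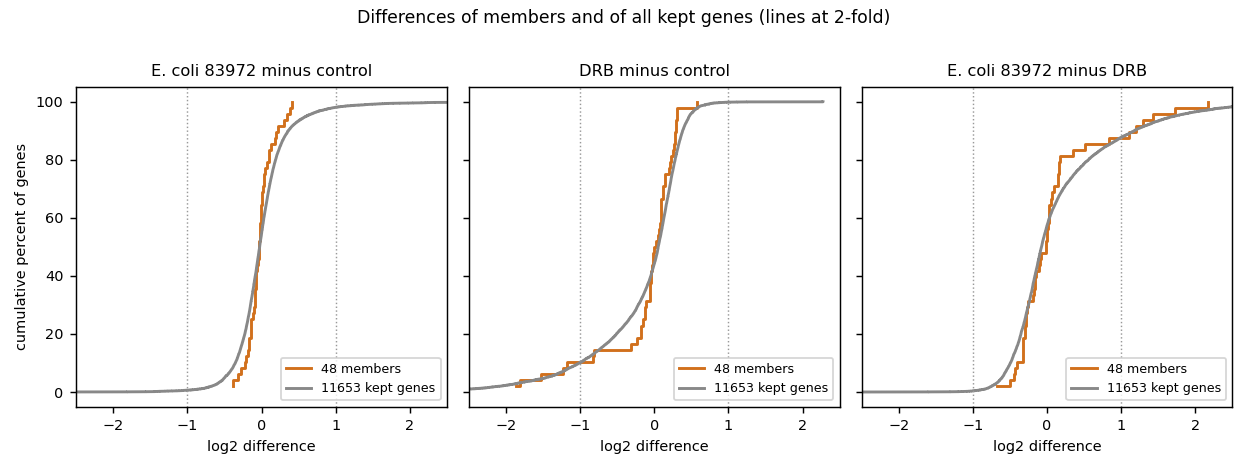
Cumulative percent of genes (vertical axis) at or below each log2 difference (horizontal axis), for the 48 kept members (orange) and all 11653 kept genes (grey) in the 3 comparisons, with dotted lines at 2-fold. The members' medians were -0.03 for E. coli 83972 and 0.01 for DRB, and the lowest DRB values belonged to a few members.

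Among the factors that select the start codon, EIF1B was the member with the lowest DRB difference. EIF1B is the close paralog of EIF1, which keeps the scanning ribosome open until the start codon is found. Its level was 8.32 with E. coli 83972 and 6.15 with DRB, against 8.02 on the control array. It was thus 1.87 lower with DRB, or 3.66-fold, and 0.30 higher with E. coli 83972. Its other probe set gave -1.70 and 0.22, and 2.86% of all kept genes had a lower DRB difference than EIF1B. EIF1 stood at 12.45 with E. coli 83972, 12.28 with DRB and 12.46 on the control array. All 4 of its kept probe sets differed by -0.13 to -0.19 with DRB, so that EIF1B lay 1.69 below EIF1 in this difference and their probe sets did not overlap.

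EIF5, the GTPase-activating protein that acts on eIF2 once the start codon is recognised, was lower with DRB on every kept probe set. Its level was 11.02 with E. coli 83972 and 10.18 with DRB, against 11.01 on the control array. The difference was -0.83 with DRB, and the 7 kept probe sets gave -0.28 to -0.94 averaging -0.64 ± 0.24 (SD). With E. coli 83972 it was 0.01. EIF1AD, named for its eIF1A domain, had 6.62 with E. coli 83972 and 5.20 with DRB, against 7.01 on the control array. Its DRB difference of -1.81 came from 1 of 2 kept probe sets, and the other gave -0.31. EIF1AX, the eIF1A that works beside eIF1, had 9.37 and 9.53, against 9.26 on the control array, a difference of 0.27 with DRB. The median over the 5 kept genes, with EIF1AD counted by its brightest probe set, was -0.83 with DRB and 0.01 with E. coli 83972. Both are the values of EIF5.

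The subunits of eIF2 itself differed little. EIF2S1, the alpha subunit that the kinases phosphorylate, had 9.08 with E. coli 83972 and 9.23 with DRB, against 9.15 on the control array. Its 5 kept probe sets differed in direction, from -0.07 to 0.30 with E. coli 83972 and from -0.20 to 0.15 with DRB. EIF2S3, the gamma subunit that binds the nucleotide and the initiator tRNA, had 11.38 and 11.37, against 11.39. EIF2S2, the beta subunit, was the member with the highest E. coli 83972 difference, at 11.40 with E. coli 83972 and 10.88 with DRB, against 10.99 on the control array. That difference was 0.41 on the brightest probe set and 0.19 on the other, both under 1.5-fold, and the DRB difference was -0.11. Among related factors, EIF2A and EIF2D, which can deliver initiator tRNA by other routes, had E. coli 83972 differences of 0.12 and -0.21 and DRB differences of -0.03 and 0.23. EIF5B, the GTPase of subunit joining, had 0.22 and 0.15. The median of these 6 kept genes was 0.06 with E. coli 83972 and 0.03 with DRB.

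In eIF2B, the exchange factor that returns eIF2 to its GTP form, EIF2B1 stood lowest with E. coli 83972. EIF2B1 encodes the alpha subunit, part of the regulatory core that senses phosphorylated eIF2. It had 8.97 with E. coli 83972 and 9.48 with DRB, against 9.36 on the control array, and its 3 kept probe sets gave -0.28 to -0.59 with E. coli 83972. The brightest gave -0.38 with E. coli 83972 and 0.12 with DRB. EIF2B5, the catalytic epsilon subunit, had 7.22 on both treated arrays, against 7.45 on the control array. The remaining subunits, EIF2B2, EIF2B3 and EIF2B4, gave -0.03, -0.18 and 0.03 with E. coli 83972, and their DRB differences were 0.14, 0.12 and 0.05. No eIF2B gene reached 1.5-fold by its brightest probe set, while the EIF2B1 probe set at -0.59 was just past it. The family median was -0.18 with E. coli 83972 and 0.12 with DRB, which turns to -0.53 with spike-in centring.

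One eIF2 alpha kinase, EIF2AK3, separated from the other members of its family with DRB. EIF2AK3 encodes PERK, the kinase of the endoplasmic reticulum membrane that responds to unfolded protein. It had 8.55 with E. coli 83972 and 6.82 with DRB, against 8.35 on the control array. The DRB difference was -1.53, or 2.89-fold lower, and its 3 kept probe sets gave -1.53, -1.49 and -0.99 (mean -1.33 ± 0.30, SD over probe sets). With E. coli 83972 it was 0.20, and the probe sets gave 0.20 to 0.30.

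EIF2AK1 (HRI), the heme-regulated kinase, had 9.96 with E. coli 83972 and 10.12 with DRB, against 10.10 on the control array. EIF2AK2 (PKR), which is activated by double-stranded RNA, had 9.11 and 9.38, against 9.18. EIF2AK4 (GCN2), which senses uncharged tRNA, had 8.56 and 8.88, against 8.63. Their E. coli 83972 differences were -0.14, -0.07 and -0.08 and their DRB differences 0.02, 0.21 and 0.25, so the brightest probe sets of these 3 kinases were under 1.5-fold on both treated arrays. The 7 kept probe sets of EIF2AK1 spread more with DRB, between -0.02 and 0.62 with a mean of 0.29 ± 0.24 (SD), and 1 of them was past 1.5-fold higher. EIF2AK3 lay 1.55, 1.73 and 1.78 below EIF2AK1, EIF2AK2 and EIF2AK4 in the DRB difference, and its probe sets did not overlap with theirs. The gaps between genes are the same under any centring of the arrays.

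**Figure D3:**
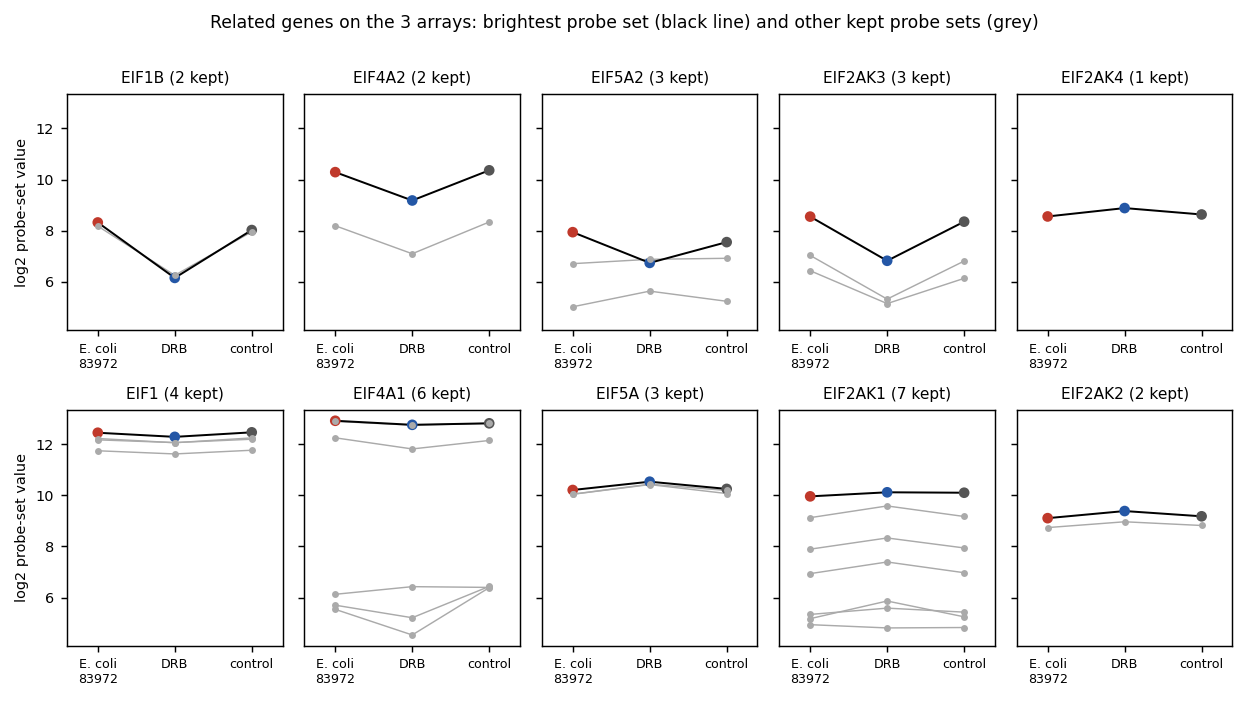
Log2 probe-set values (vertical axis) of related genes on the E. coli 83972, DRB and control arrays, 1 array each, with the brightest probe set in black and the other kept ones in grey. EIF1B, EIF4A2 and EIF2AK3 were lower on the DRB array than on the other 2 arrays, while EIF1 and the brightest probe sets of EIF4A1, EIF2AK1, EIF2AK2 and EIF2AK4 differed from their control level by -0.18 to 0.25, and other EIF2AK1 probe sets were up to 0.62 higher with DRB.

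Regulators and targets of eIF2 alpha phosphorylation, none of them a member, included larger differences. Of 15 listed genes, all kept, 4 were at least 2-fold higher with E. coli 83972 (1.91% of all kept genes), with a list median of 0.56. With DRB 4 were at least 2-fold lower (10.2% of all kept genes), PPP1R15B, NCK1, DDIT3 and ATF4, with a list median of -0.11. PPP1R15B, a regulatory subunit that directs protein phosphatase 1 to eIF2 alpha, had 10.73 with E. coli 83972 and 4.74 with DRB, against 8.57 on the control array. DDIT3 (CHOP), a transcription factor downstream of ATF4, had 8.02 and 4.62, against 5.81, and ATF4 had 12.01 and 9.52, against 10.60. The DRB values of PPP1R15B and DDIT3 were under 4.88, where differences are compressed. NCK1, an adaptor that also limits eIF2 alpha phosphorylation, was at 9.15 and 6.17, against 8.37. PPP1R15A (GADD34), the inducible counterpart of PPP1R15B, was 1.33 higher with E. coli 83972 and 0.69 higher with DRB. By brightest probe sets, the largest member difference with E. coli 83972 in the same cells, that of EIF2S2, was 0.41. The one control array served for both differences.

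**Figure D4:**
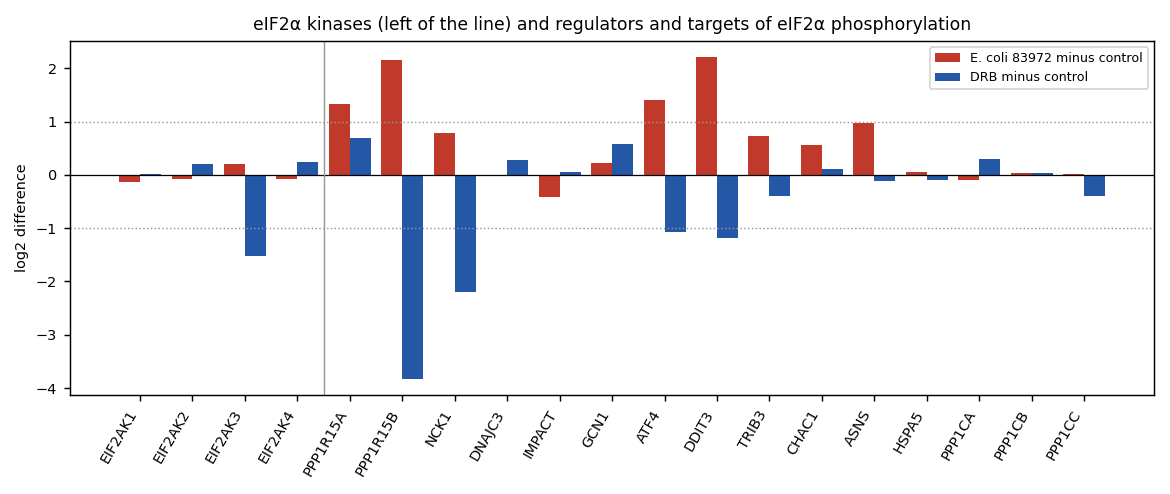
Log2 differences from the control array of the eIF2 alpha kinases, beside the listed regulators and targets of eIF2 alpha phosphorylation (1 array per group, brightest probe set). With E. coli 83972, DDIT3 (2.21), PPP1R15B (2.16), ATF4 (1.41) and PPP1R15A (1.33) lay beyond 2-fold, and no member did.

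The member genes of the eIF3 complex, the large scaffold that holds the small ribosomal subunit ready and links it to eIF4G, differed little. All 12 kept subunit genes lay between -0.19 (EIF3L) and 0.18 (EIF3A) with E. coli 83972, and between -0.31 (EIF3M) and 0.29 (EIF3I) with DRB. None reached 1.5-fold on either array. The medians were -0.03 with E. coli 83972 and 0.09 with DRB, and the DRB median was -0.56 with spike-in centring. EIF3C is not among the 12, since the 5 probe sets that list it also list its copy EIF3CL. Those 5 were 0.26 to 0.63 higher with DRB, the highest past 1.5-fold, and between -0.09 and 0.11 with E. coli 83972. EIF3M had 11.37 with E. coli 83972 and 11.02 with DRB, against 11.33 on the control array. EIF3I and EIF3G, subunits of the module that stays on the scanning ribosome, were 0.29 and 0.27 higher with DRB.

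In the eIF4F group the helicase paralogs EIF4A1 and EIF4A2 separated with DRB. EIF4A2 had 10.29 with E. coli 83972 and 9.18 with DRB, against 10.36 on the control array. The DRB difference was -1.18, or 2.26-fold lower, the second kept probe set gave -1.24, and with E. coli 83972 the gene was at -0.07. EIF4A1, the helicase isoform that carries most of the activity in dividing cells, had 12.91 and 12.76, against 12.81, a DRB difference of -0.06. EIF4A3, which works in the exon junction complex on spliced messages, had 10.41 and 10.38, against 10.56, a DRB difference of -0.18. EIF4A2 thus lay 1.12 below EIF4A1 and 1.00 below EIF4A3 in that difference.

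Some probe sets of these helicases did not follow the brightest one. For EIF4A1, a dim probe set at 5.54 with E. coli 83972 and 4.54 with DRB, against 6.39 on the control array, gave -0.85 with E. coli 83972 and -1.85 with DRB. Another, at 5.70 and 5.21, against 6.44, gave -0.73 and -1.22. The kept probe sets of EIF4A1 and EIF4A2 therefore overlapped in the DRB difference. A further 2 kept probe sets that list both EIF4A2 and SNORA63, a small nucleolar RNA, were outside the rule and were 0.33 and 0.20 higher with DRB, the opposite direction to the EIF4A2 probe sets. Which part of the transcript each probe set reads was not examined.

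Among the cap-binding and scaffold genes, none reached 1.5-fold by its brightest probe set, and EIF4E3 came nearest, with DRB. EIF4E, the cap-binding protein, had 10.00 with E. coli 83972 and 9.82 with DRB, against 9.97 on the control array. EIF4E2, a paralog that represses translation of bound messages, had 9.26 and 9.51, against 9.57, and its E. coli 83972 difference of -0.31 was the lowest of the family. EIF4E3, a further cap-binding relative, had the highest DRB difference of any member by brightest probe set. It had 5.39 with E. coli 83972 and 6.06 with DRB, against 5.48 on the control array. The DRB difference was 0.58, just under 1.5-fold, and it was -0.07 with spike-in centring. The other kept probe sets of EIF4E3 gave 0.11 and 0.47 with DRB. EIF4G1, the main scaffold, had 9.45 with E. coli 83972 and 9.77 with DRB, against 9.48. EIF4G2 (DAP5), a scaffold that lacks the site for eIF4E, had 11.57 on both treated arrays, against 11.70. The helicase cofactors EIF4B and EIF4H gave -0.09 and -0.01 with E. coli 83972, while their DRB differences were 0.31 and 0.00. The other kept probe set of EIF4H gave 0.28 with E. coli 83972 and 0.58 with DRB.

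The proteins that bind eIF4E and hold it from eIF4G differed from the control with E. coli 83972 by less than 1.5-fold each. EIF4EBP1 (4E-BP1), a target of the kinase mTOR, had 9.33 with E. coli 83972 and 9.30 with DRB, against 8.99 on the control array, and its 3 kept probe sets gave 0.21 to 0.34 with E. coli 83972. EIF4EBP2 had 7.62 and 7.89, against 7.90, a difference of -0.28 with E. coli 83972 and -0.01 with DRB. Its 3 kept probe sets gave -0.28 to -0.44 with E. coli 83972, and with DRB the other 2 gave 0.29 and 0.48, so the brightest was the lowest there. The gap between the paralogs in the E. coli 83972 difference was 0.62. EIF4ENIF1 (4E-T), which carries eIF4E into the nucleus and into processing bodies, had 6.63 with E. coli 83972 and 5.33 with DRB, against 6.56 on the control array. It was 1.23 lower with DRB on the brightest probe set, or 2.34-fold. The other kept probe set, at 5.26 and 5.08, against 4.99, gave 0.09, so the mean over the probe sets, -0.57 ± 0.93 (SD over 2 probe sets), is not past 2-fold.

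Of the remaining factors, EIF5A and EIF5A2 encode the proteins that carry hypusine and help the ribosome through difficult peptide bonds. EIF5A had 10.21 with E. coli 83972 and 10.53 with DRB, against 10.25 on the control array. EIF5A2 had 7.94 and 6.74, against 7.55, a difference of 0.39 with E. coli 83972 and -0.81 with DRB. The other kept probe sets of EIF5A2 gave -0.04 and 0.40 with DRB and -0.21 and -0.22 with E. coli 83972, so the direction of EIF5A2 was not shared by its probe sets. EIF6, which keeps the large ribosomal subunit from joining early, was at -0.02 with E. coli 83972 and -0.05 with DRB.

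The direct comparison of the treated arrays placed 6 members at least 2-fold higher with E. coli 83972 than with DRB, 12.5% of the kept members beside 12.3% of all kept genes, which is again near the background. These were EIF1B (2.17), EIF2AK3 (1.73), EIF1AD (1.42), EIF4ENIF1 (1.30), EIF5A2 (1.20) and EIF4A2 (1.11), each by its brightest probe set. The other kept probe sets gave 0.18 for EIF1AD, 0.18 for EIF4ENIF1, and -0.17 and -0.61 for EIF5A2. No member was 2-fold lower, where 0.386% of all kept genes were. At 1.5-fold, 7 members were higher, EIF5 among them at 0.84, beside 19.3% of all kept genes. One member, EIF4E3 at -0.67, was lower, beside 5.72%, and its other kept probe sets gave -0.31 and -0.46. On its brightest probe set alone, EIF5A2 reached 2-fold here and in neither comparison with control. That probe set had 7.94 with E. coli 83972 and 6.74 with DRB, on opposite sides of the control level of 7.55. The members' median was -0.01, against -0.07 over all kept genes. EIF2S2 and EIF2B1 lay at 0.52 and -0.50, the highest and lowest values among eIF2 and eIF2B.

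Agreement among probe sets sets how firmly single genes can be described. Of the 48 kept members, 41 had several kept probe sets and 7 had 1. All kept probe sets of a gene had one direction for 25 of the 41 with E. coli 83972 and for 26 of the 41 with DRB. They spread over more than 1 on the log2 scale with DRB for EIF1AD, EIF4A1, EIF4ENIF1 and EIF5A2, and for no member with E. coli 83972. EIF1B, EIF2AK3 and EIF4A2 were the members past 2-fold with DRB whose kept probe sets were all lower by 0.99 or more after rounding. The value of 0.99, from 1 EIF2AK3 probe set, is just short of 2-fold.

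Other genes of the translation apparatus gave a frame for the members. Of 15 elongation and termination factors, 13 were kept and none was 2-fold higher or lower on either treated array, with medians of 0.02 with E. coli 83972 and -0.01 with DRB. EEF2K, the kinase that inhibits elongation factor eEF2, was 0.58 lower with E. coli 83972, at 6.84 with E. coli 83972 and 7.41 with DRB, against 7.42 on the control array. Of 24 initiation helpers and regulators that bind messenger RNA, 22 were kept. None was past 2-fold with E. coli 83972, and 2 were at least 2-fold lower with DRB, 9.09% beside 10.2% of all kept genes and so near the background. These were PELO, a ribosome rescue factor, at -3.73, and the RNA helicase DDX3X at -1.18. Their medians were -0.08 with E. coli 83972 and -0.07 with DRB. Of 16 genes of mTOR and MNK control, 15 were kept, and 1 was at least 2-fold higher with E. coli 83972 (6.67%, beside 1.91% of all kept genes), SESN2, a sestrin that restrains mTOR complex 1, at 1.40. With DRB, RICTOR, a subunit of mTOR complex 2, and TSC1, a brake on mTOR, were at -1.32 and -1.24 (2 of the 15 kept genes, beside 10.2% of all kept genes), and none was 2-fold higher. The medians of that list were -0.06 with E. coli 83972 and -0.15 with DRB.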

How the data were processed

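Values were probe-set values on the log2 scale from 3 Affymetrix arrays of A498 cells (E. coli 83972, DRB, control), as the authors deposited them. They were made with RMA and Partek, per the submitters' processing notes; their versions were not given in the sources used. RMA brings arrays to nearly one distribution, so a change shared by most transcripts is reduced.

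Of 49386 probe sets, the platform annotation listed 46586, of which 45259 had 1 gene and 1327 several; 2800 were not listed. Symbols were updated through a RefSeq table (GRCh38.p14, names only) for 45178. A gene was represented by its brightest probe set on average and was kept where its highest value reached the median of all values, 4.88 (11653 of 18239 genes). Differences at least 2-fold were counted, with no test, since each group had 1 array; the number of arrays limits the precision. Alternatives were the mean over kept probe sets, plain-suffix probe sets, no or a stricter filter (75th percentile, 6.91), quantile normalisation, spike-in or median centring, and 1.5-fold. Named members were those past 2-fold or otherwise the 6 largest in each direction, the eIF2, eIF2B and kinase genes, the eIF4 paralogs and eIF4E-binding proteins, and those with discordant probe sets; from other lists, up to 4 genes for each comparison. EIF1, EIF1AX, EIF3A, EIF3L, EIF3M, EIF4H and EIF6 were given as further values in their families. Members and lists were chosen with earlier results of these data known. Promoter windows came from a RefSeq table of GRCh38.p14 and were matched by symbol. Python 3.11.15, pandas 2.3.3, numpy 2.4.6 and matplotlib 3.10.9 were used, and the counting was tested on simulated data.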

Additional observations from a re-analysis of the deposited data

How the results depend on the processing

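With 1 array a group, no replicate could be left out and no precision beyond the probe sets is known. No paired analysis was possible because each group had 1 array and all 3 carried the number 2. With the mean over kept probe sets, members at least 2-fold higher with E. coli 83972 than with DRB numbered 3 (EIF1B, EIF2AK3 and EIF4A2) in place of 6, and those lower with DRB than control 4 in place of 5, without EIF4ENIF1. Spike-in centring put the members' median at -0.64 for DRB minus control and 0.51 for E. coli 83972 minus DRB. The count at least 1.5-fold lower with E. coli 83972 than with DRB was 1, against 0 at 2-fold. The stricter filter left 46 members, without EIF4ENIF1 and EIF4E3. A difference of a named gene was counted as moved where it changed by more than the plain standard deviation of 1 probe set. That was 0.184 for E. coli 83972 minus control, 0.316 for DRB minus control and 0.349 for E. coli 83972 minus DRB. It came from gaps between probe sets divided by the square root of 2. The mean over probe sets moved 9 of 102, plain-suffix probe sets 5 of 84 and quantile normalisation 0. Spike-in centring shifts all genes of a comparison alike, by the spike-in median of 0.14, 0.65 and -0.52 in that order. Its count of 68 of 102 was therefore set by those shifts and does not describe single genes. The 0 under median centring and the filters was likewise fixed in advance. The count of members 2-fold different from control with E. coli 83972 was 0 under every alternative. The 1.5-fold count was made only on brightest probe sets as deposited, where it was also 0.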

Other observations

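The probe sets that list several genes stood outside the rule and numbered 15. Of these, 5 list EIF3C with its near-identical copy EIF3CL, a core subunit of eIF3. They lay between -0.09 and 0.11 with E. coli 83972 and between 0.26 and 0.63 with DRB, with a DRB median of 0.41, and the copies cannot be told apart there. The brightest of them had 9.92 with E. coli 83972 and 10.14 with DRB, against 9.88 on the control array. A further 3 list EIF5A with EIF5AL1 and were 0.33 to 0.43 higher with DRB and -0.03 to 0.00 with E. coli 83972. A probe set shared by EIF4EBP3 and the readthrough gene ANKHD1-EIF4EBP3 gave -0.17 with E. coli 83972 and -0.22 with DRB. The probe set shared by EIF3L and EIF3LP3 gave -0.15 and 0.15.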
